A study of Mus musculus with 4 samples.

Results

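The Rhox genes are a cluster of homeobox genes on mouse chromosome X that are active mainly in reproductive tissues, and Esx1 is a related X-linked homeobox gene. All probe sets of the expression array annotated to a gene whose symbol starts with Rhox and a number, or to Esx1, were taken, which gave 5 of the 45101 probe sets on the array. They measure Rhox5, Rhox6, Rhox9, Rhox13 and Esx1, with 1 probe set each, and none of the 5 lists more than 1 gene symbol. The group was chosen by signal, with the higher signal of several of these genes in Suz12KO arrays already known, so its values in that comparison are a description and carry no test. The RefSeq annotation of assembly GRCm38.p6 names 42 Rhox genes and pseudogenes, 33 of them protein-coding, and only 4 have a probe set here. The others were not analysed here.

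Mouse embryonic stem cells that lack Suz12 (Suz12KO) were compared with wild-type ones (WT), on 2 Affymetrix arrays each. SUZ12 belongs to the core of the Polycomb complex PRC2, an enzyme that places methyl groups on lysine 27 of histone H3 at silent developmental genes. The submitters describe 3 clones for each genotype, whose RNA was prepared one by one and then combined in equal amounts into a single pool. No label says whether both arrays of a genotype were hybridised with that pool, so errors and p-values below measure the spread between arrays, which may be technical, and not the spread between clones. The labels used here name no parental line, sex, culture medium or passage. A difference in any of these between the genotypes cannot be told apart from the loss of Suz12. Precision is limited by the number of arrays.

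Rhox proteins are transcription factors of the paired-like homeobox class. In mice, RHOX5, first described as Pem, is made in Sertoli cells, the epididymis, the placenta and early embryonic cells, and its loss lowers sperm number and motility. Rhox6 and Rhox9, first described as Psx1 and Psx2, lie in the same cluster and are expressed in the placenta and in germ cells, and Rhox13 is expressed in male germ cells. Esx1 is active in the trophoblast of the placenta and in spermatogenic cells, and mouse placentas without it develop abnormally. In the embryo proper the cluster is largely silent, and DNA methylation of its promoters is known to take part in that silencing.

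The promoter windows of Rhox5, Rhox13 and Esx1 are shown because DNA methylation of vertebrate genes acts on CG dinucleotides, which are in capitals. Each window runs 5' to 3' in the direction of transcription, from 250 bases before to 50 bases after the RefSeq start (GRCm38.p6). The windows are chrX:37754358-37754657 (plus strand) for Rhox5, chrX:38120590-38120889 (plus strand) for Rhox13 and chrX:137120277-137120576 (minus strand) for Esx1.
Rhox5: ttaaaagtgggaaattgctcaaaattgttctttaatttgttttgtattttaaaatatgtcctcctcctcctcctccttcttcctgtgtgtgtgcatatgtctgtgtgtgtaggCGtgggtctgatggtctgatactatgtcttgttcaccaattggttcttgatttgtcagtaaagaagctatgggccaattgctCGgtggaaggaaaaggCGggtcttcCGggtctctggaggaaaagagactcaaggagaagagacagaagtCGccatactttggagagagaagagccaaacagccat
Rhox13: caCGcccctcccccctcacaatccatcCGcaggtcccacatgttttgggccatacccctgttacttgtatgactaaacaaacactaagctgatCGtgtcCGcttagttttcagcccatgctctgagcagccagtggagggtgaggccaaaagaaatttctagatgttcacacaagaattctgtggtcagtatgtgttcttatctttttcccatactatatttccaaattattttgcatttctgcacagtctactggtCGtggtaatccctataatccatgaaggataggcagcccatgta
Esx1: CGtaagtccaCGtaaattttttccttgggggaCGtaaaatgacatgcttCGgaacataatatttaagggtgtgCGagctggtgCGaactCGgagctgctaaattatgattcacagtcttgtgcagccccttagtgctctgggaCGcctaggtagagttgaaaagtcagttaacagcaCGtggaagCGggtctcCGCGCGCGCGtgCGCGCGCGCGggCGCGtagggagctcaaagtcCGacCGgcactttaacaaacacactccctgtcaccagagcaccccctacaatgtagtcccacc
Rhox6 and Rhox9 are named only.

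The windows differed in their CG content. Rhox5 and Rhox13 had 5 CG dinucleotides each, with a GC content of 43.7% and 45.3%. Esx1 had 24 and a GC content of 54.0%. The median over 32544 promoter windows of the same length was 7 CG dinucleotides and 53% GC, and 20.1% of windows held as many as Esx1 or more. The observed number relative to that from base composition was 0.363 for Rhox5, 0.335 for Rhox13 and 1.10 for Esx1.

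A few short motifs were searched on both strands. The E-box CACGTG, read by the MAX family of basic helix-loop-helix factors, had 1 match in the Esx1 window, from base 176, and was found in 7.17% of all windows. The ETS core CCGGAA had 1 match in the Rhox5 window, from base 218 on the opposite strand, and was found in 15.0% of all windows. The GATA letters AGATAA had 1 match in the Rhox13 window, from base 199 on the opposite strand, and was found in 11.2% of all windows. The octamer ATGCAAAT was in none of the 3 windows and in 1.75% of all. The E-box and ETS letters each contain a CG and so overlap the letters in capitals. A match of letters describes the window alone. Rhox5 is known to have more than 1 promoter, and only the window at the RefSeq start is shown.

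The targeted gene was lower in the arrays labelled Suz12KO. The brightest Suz12 probe set read 217 and 369 in Suz12KO, against 1097 and 1094 in WT, and fell by 1.89 on the log2 scale (SE 0.27, limma, adjusted p = 0.0021). Averaging all Suz12 probe sets gave -1.67 (adjusted p = 0.060). The labels do not place them relative to the deletion. All 8 stem cell markers listed, among them Pou5f1 and Nanog, were above background in every array and passed the test as higher in Suz12KO.

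Signal is given in the units of the array, in which each array was scaled to the same trimmed mean, and log2 fold changes are Suz12KO minus WT of log2(signal + 16). Background was read from 27 probe sets for bacterial RNA that stayed low on all 4 arrays, and which were treated as unused. The highest of these was at 195 and 174 in the Suz12KO arrays and at 141 and 191 in the WT arrays. Of the 5 Rhox and Esx1 probe sets, 5 lay above this level in both Suz12KO arrays. In WT, 1 did so in both arrays, 3 in 1 of 2 arrays and 1 in no array. Signals of different probe sets depend on their own sequences, so the levels of the 5 genes cannot be ranked against each other. In bulk RNA, more cells that express a gene and more RNA per cell cannot be told apart.

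**Figure D1:**
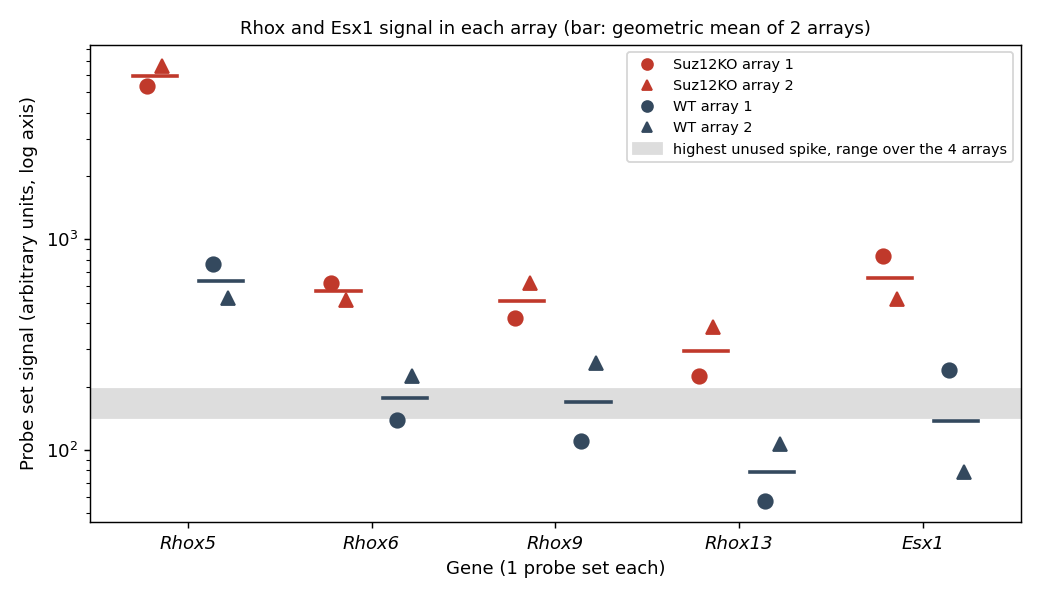
Signal (log axis, array units) of the 5 probe sets in each array. Red marks are the 2 Suz12KO arrays, dark marks the 2 WT arrays and bars the geometric mean of 2 arrays. The grey band spans the highest unused spike over the 4 arrays (141 to 195). For each gene both red marks lie above both dark marks, and for Rhox13 both WT marks lie under the band.

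Rhox5 was the only member above background in every array. It read 5326 and 6631 in Suz12KO, against 768 and 527 in WT. The lower Suz12KO array was 6.94 times the higher WT array, while the 2 arrays of a genotype differed by 1.24-fold in Suz12KO and 1.46-fold in WT. The mean was 5978 ± 923 in Suz12KO and 647 ± 170 in WT (SD, n = 2 arrays each), a ratio of 9.24. The log2 fold change was 3.19 (SE 0.18), and 4 of 12735 tested genes had a larger one.

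Rhox6, a placental member, follows Rhox5 directly in the RefSeq gene order. Its probe set read 620 and 516 in Suz12KO, against 139 and 223 in WT. The Suz12KO arrays were the closest pair among the 5 members, differing by 1.20-fold, and WT array 1 lay within background. The mean was 568 ± 73.9 in Suz12KO and 181 ± 59.9 in WT (SD, n = 2 each), and the log2 fold change was 1.59 (SE 0.35).

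Rhox9, the paralog of Rhox6, read 421 and 622 in Suz12KO, against 110 and 259 in WT. The gap between the groups was the narrowest of the 5, with the lower Suz12KO array 1.63 times the higher WT array, less than the 2.35-fold difference between the 2 WT arrays. The mean was 522 ± 142 in Suz12KO and 185 ± 105 in WT (SD, n = 2 each), and the fitted fold change was 2.84 (SE 0.44 on the log2 scale). Because Rhox6 and Rhox9 are close paralogs, part of the signal of either probe set could come from the other gene. This was not tested. Without WT array 1 the Rhox9 log2 fold change was 0.94, and without WT array 2 it was 2.07.

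The probe set of Rhox13, the germ cell member, was the only one within background in both WT arrays. It read 225 and 385 in Suz12KO, against 57.5 and 107 in WT. Set against the background level, the gene was at least 1.79-fold higher in Suz12KO. The fitted log2 fold change was 1.71 (SE 0.60), which depends on readings within background. Rhox13 passed the filter on dim genes only through its Suz12KO arrays: its mean log2 level was 8.28 in Suz12KO and 6.57 in WT, and the filter stood at 7.19. The other 4 members would have passed it on their WT arrays alone.

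Esx1, which lies far from the Rhox cluster on the same chromosome, read 834 and 520 in Suz12KO, against 239 and 78.8 in WT. Its WT arrays differed by 3.04-fold, the widest spread within a genotype among the members, and WT array 2 lay within background. The mean was 677 ± 222 in Suz12KO and 159 ± 114 in WT (SD, n = 2 each), and the log2 fold change was 2.12 (SE 0.49). Without WT array 2 it was 1.40 and without WT array 1 it was 2.83. The name of its probe set marks a design that can detect several transcripts of the gene.

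All 5 members had both Suz12KO arrays above both WT arrays, as did 29.0% of all tested genes. Of all tested genes, limma called 9.97% in either direction at an adjusted p under 0.05. Nothing is read from the members' count, since the same comparison chose the members. Their fitted fold changes ran from 2.84 to 9.14, with a median of 1.71 on the log2 scale, and the median of all 12735 tested genes was 0.04. A log2 fold change of at least 1 was seen in 4.62% of tested genes.

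**Figure D2:**
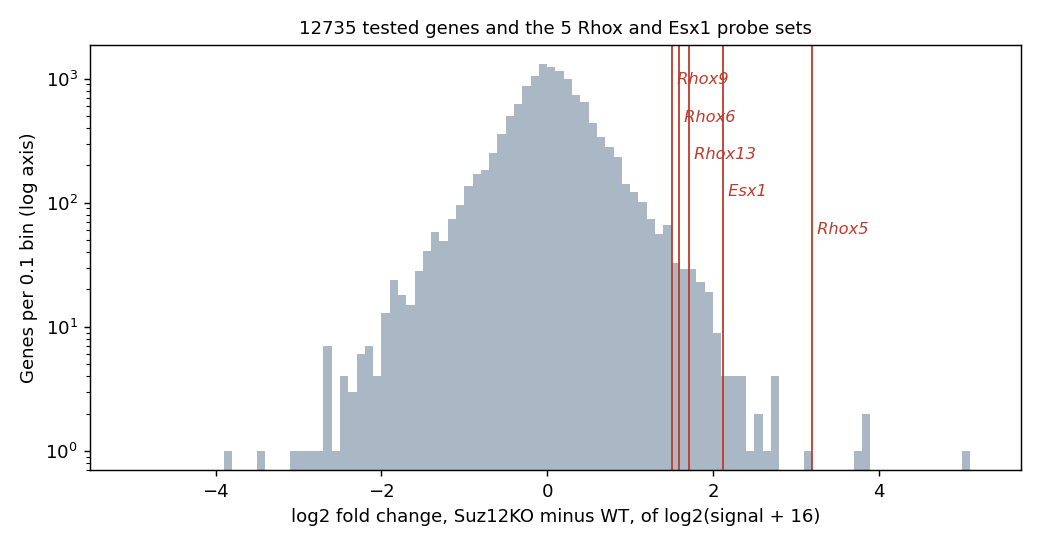
Distribution of log2 fold changes (Suz12KO minus WT) of the 12735 tested genes, with the number of genes per 0.1 bin on a log axis. Red lines mark the 5 members, which lie right of 1 and reach 3.19.

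The members did not share 1 pattern across the arrays. In WT, Rhox6, Rhox9 and Rhox13 were higher in array 2, while Rhox5 and Esx1 were higher in array 1. In Suz12KO, Rhox5, Rhox9 and Rhox13 were higher in array 2, and Rhox6 and Esx1 in array 1. Likeness was measured as the sum over the 4 arrays of absolute differences in log2(signal + 16), after each gene was centred on its own mean. Distances among the members ran from 0.58 to 3.76. Their order is not read, since 4 of the 5 members have WT readings within background.

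By the same measure, the tested genes nearest to Rhox5 were Oas1a (0.83), an interferon-induced enzyme, Tbx3 (1.08), a T-box factor active in stem cells, and Aire (1.10), a regulator of thymic self-antigens. Calcoco2 (1.29) and Fcna (1.42) followed. Tbx3 read 1227 and 1544 in Suz12KO, against 215 and 196 in WT. Calcoco2 read 3554 and 3559 in Suz12KO, against 358 and 151 in WT. Oas1a, Aire and Fcna lay within background in both WT arrays, so their exact distances are uncertain. The nearest to Rhox6 were Pck2 (0.18) and Tmem191c (0.23), to Rhox9 Lrrc23 (0.20) and Dpf1 (0.26), to Rhox13 Hebp1 (0.36) and Kbtbd11 (0.49), and to Esx1 Srgn (0.29) and 4930422I22Rik (0.35). Of these, Dpf1, Hebp1, Srgn and 4930422I22Rik also lay within background in both WT arrays. The median distance over the other tested genes was 6.31 from Rhox5, 3.15 from Rhox6, 3.04 from Rhox9, 3.39 from Rhox13 and 4.21 from Esx1. The measure includes the Suz12KO minus WT difference known when the members were chosen, so near genes share a like difference. Members other than Rhox5 have WT readings within background, so the order of their nearest genes is not read.

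The plot of members under other settings shows how far 1 array moves each value. Because the groups do not overlap, leaving out an array cannot turn a direction. Rhox5 ranged from 2.93 to 3.46, Rhox6 from 1.28 to 1.91 and Rhox13 from 1.34 to 2.08. Centring each array on its median lowered the median of all tested genes to -0.13 and gave 3.02 for Rhox5, 1.43 for Rhox6, 1.34 for Rhox9, 1.54 for Rhox13 and 1.95 for Esx1. With a pseudocount of 64, which shrinks dim genes most, Rhox13 was at 1.32 and Rhox5 at 3.10.

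**Figure D3:**
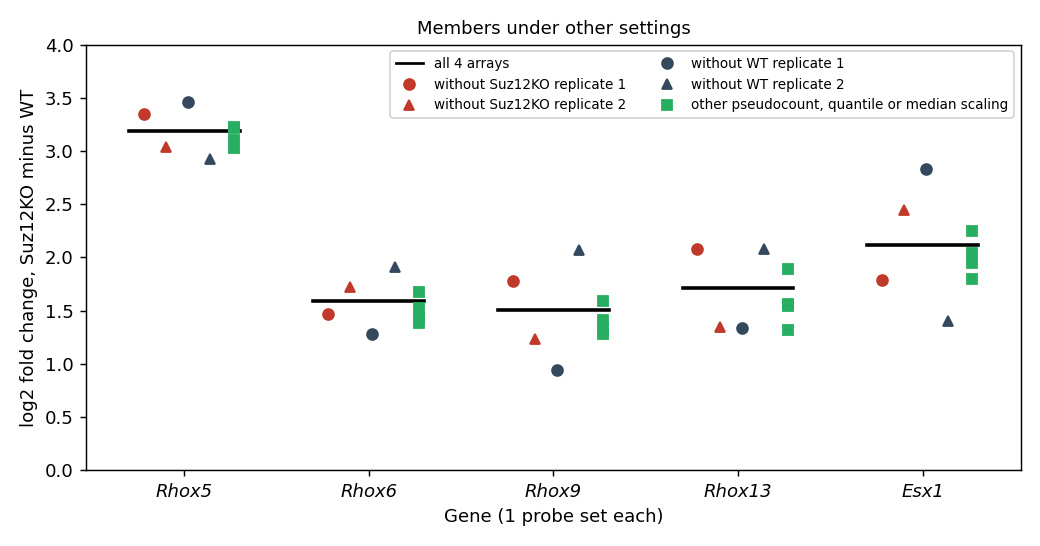
Log2 fold change of each member (Suz12KO minus WT) with all 4 arrays (black line), without each array in turn (red and dark marks) and with other pseudocounts or scalings (green squares). Every value is above 0. The lowest is 0.94, for Rhox9 without WT array 1.

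Most genes beside the members on chromosome X did not pass the test. Of the 40 tested genes next in order around the Rhox cluster, 20 on each side, 4 were called higher and 4 lower by limma at an adjusted p under 0.05, and 32 were not called. Over all tested genes 570 (4.48%) were called higher and 700 (5.50%) lower. With each array centred on its median these counts were 294 and 1243. The median of the 40 was 0.15. The nearest tested genes did not pass: Gm9 had 1.24 (SE 0.47, limma adjusted p = 0.144) on one side and Lamp2, a lysosomal membrane protein, -0.57 (SE 0.26, adjusted p = 0.225) on the other. Zbtb33, which encodes the methyl-DNA reader Kaiso and lies between Rhox13 and an outlying Rhox7 pseudogene, had -0.37 (SE 0.25, adjusted p = 0.431).

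Klhl13, an adaptor of a ubiquitin ligase, had the largest rise among the called neighbours of the cluster and was the last of its 20 genes in order. It read 11723 and 12521 in Suz12KO, against 3180 and 3754 in WT (log2 fold change 1.81, SE 0.09, limma adjusted p = 4.73e-06). The ubiquitin-conjugating enzyme Ube2a rose by 1.17 (SE 0.07) and the mitochondrial ADP/ATP carrier Slc25a5 by 0.67 (SE 0.05). Zdhhc9, a palmitoyltransferase, fell by 2.22 (SE 0.48), Dock11 by 1.11 (SE 0.14) and Zfp280c by 0.65 (SE 0.14). With averaged probe sets Zdhhc9 (-0.20) and Dock11 (-0.08) lost their calls, and without suffixed probe sets so did Slc25a5 (0.49, adjusted p = 0.0878). Zdhhc9 also lost its call without either WT array (adjusted p 0.0768 and 0.0859), and Zfp280c without WT array 1 (-0.53, adjusted p = 0.155).

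Around Esx1, 1 of 40 tested neighbours was called higher, 5 were called lower and 34 neither, and their median was -0.02. Trap1a, a tumour rejection antigen gene, was the one that rose, reading 4291 and 4703 in Suz12KO, against 1521 and 1669 in WT (1.49, SE 0.10, limma adjusted p = 2.64e-05). Tceal8 fell by 0.95 (SE 0.08), Acsl4, an acyl-CoA synthetase, by 0.77 (SE 0.18) and Tceal9 by 0.64 (SE 0.05). Acsl4 lost its call without WT array 1 or WT array 2 (adjusted p 0.103 and 0.156). The nearest tested genes, Fam199x (-0.06, adjusted p = 0.954) and Tex13a (1.32, SE 0.79, adjusted p = 0.360), did not pass. Tex13a, a testis gene, read 316 and 340 in Suz12KO, against 36.2 and 345 in WT. Without WT array 1 or WT array 2, the lower calls among all 80 neighbours fell to 5, against 9 with all arrays.

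**Figure D4:**
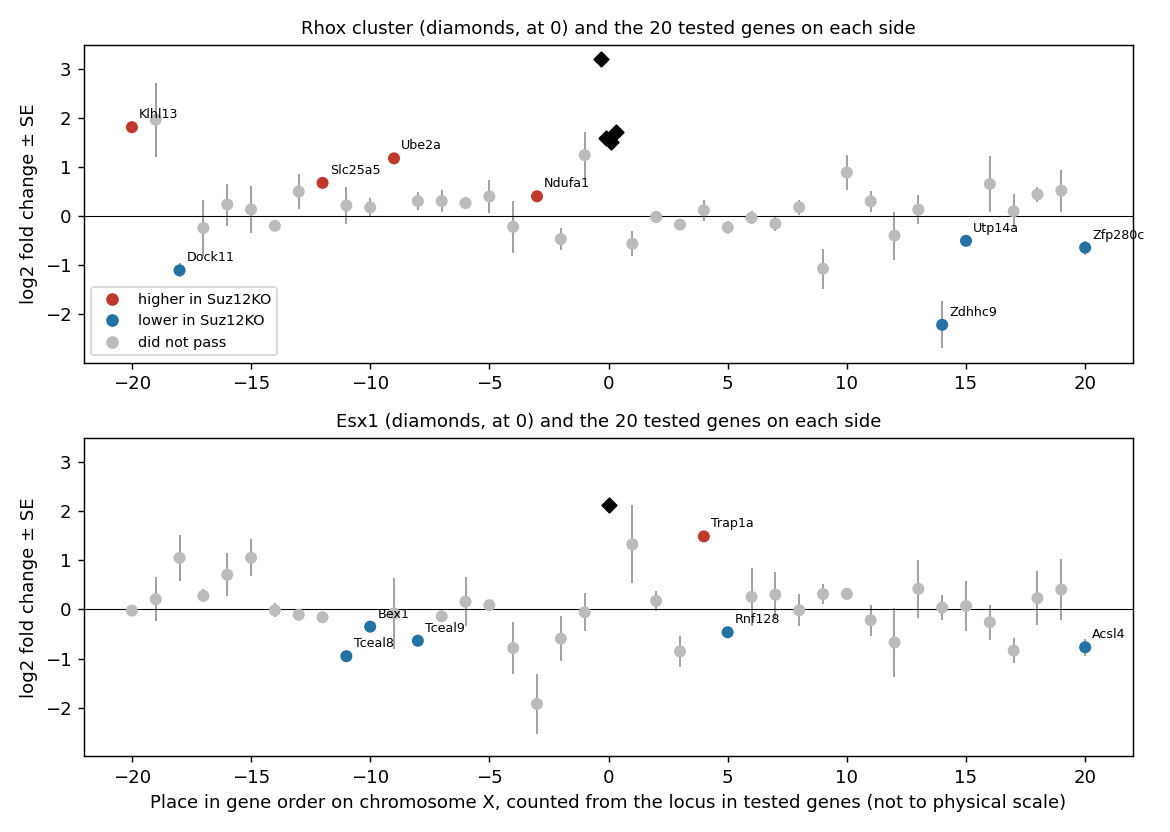
Log2 fold change (Suz12KO minus WT, bars SE) of the 20 tested genes on each side of the Rhox cluster (upper) and of Esx1 (lower), in gene order on chromosome X, which is not a physical scale. Black diamonds are the members. Red genes were called higher, blue lower, and grey did not pass.

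On chromosome X as a whole, without the members, 42 of 411 tested genes (10.2%) were called higher and 30 (7.30%) lower, against 4.48% and 5.50% of all tested genes, and the median was 0.13. With each array centred on its median the balance turned, to 25 higher and 48 lower. Over all 12735 tested genes the same setting moved the calls from 570 higher and 700 lower to 294 and 1243. Among called genes, the largest rises were Hprt, a purine salvage enzyme, Gm364 and Pnma5. Hprt read 6994 and 6746 in Suz12KO, against 263 and 141 in WT (5.04, SE 0.23, limma adjusted p = 4.28e-06). Gm364 had 2.45 (SE 0.24) and Pnma5 2.39 (SE 0.22). In WT array 2, Hprt and Gm364 lay within background, so their exact fold changes are uncertain. For Hprt, as for the other genes, a difference between parental lines cannot be told apart from the loss of Suz12. Zdhhc9, the phospholipid receptor Lpar4 (-1.99, SE 0.28) and Cited1 were the largest falls among called genes. With averaged probe sets Lpar4 was not called (adjusted p = 0.0753). Cited1 lay within background in both Suz12KO arrays and was at least 2.40-fold lower there, a call that was lost without WT array 1 or WT array 2 (adjusted p 0.172 and 0.199). The lower count on chromosome X was 16 without WT array 1 and 17 without WT array 2.

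The 5 members belong to the paired-like homeobox class. Of 39 other genes of that class listed, 29 had a probe set and 18 were bright enough to test. Otx2, needed for the anterior brain, and Hesx1, a forebrain and pituitary repressor, rose, and 16 did not pass, which makes 11.1% higher, against 4.48% of all tested genes. Otx2 read 948 and 1032 in Suz12KO, against 324 and 226 in WT (1.81, SE 0.25, limma adjusted p = 0.0019). Hesx1 read 558 and 579 in Suz12KO, against 148 and 186 in WT (1.68, SE 0.33, adjusted p = 0.0115), and lost its call without Suz12KO array 2 (adjusted p = 0.0515). Obox5, an oocyte member of this class, read 231 and 297 in Suz12KO, against 59.8 and 162 in WT, where both arrays lay within background, and was not called (adjusted p = 0.254). The list median was 0.09.

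Of the other genes of germ cells and meiosis that were tested, 40.0% were called higher, against 4.48% of all tested genes. Of 46 listed, 42 had a probe set and 25 were tested, of which 10 were called higher, 0 lower and 15 not called, and their median was 0.87. The filter on dim genes used the mean of all 4 arrays, so a gene dim in 1 genotype could pass through the other. Sycp1, Taf7l, Tex11 and Tuba3b, none of them called, had a WT mean level under the filter. Majin, also not called, had a Suz12KO mean under it. The share and median thus depend in part on the filter. Without it, 6 of the 42 germline genes were called higher, against 462 of 18193 genes in all. The list was written with earlier results of these data known, so its share is a description. All 8 stem cell markers listed were also called higher, and the overlap of the germline genes with stem cell expression was not tested. Tex19.1, a germ cell gene also expressed in stem cells and placenta, read 4693 and 4938 in Suz12KO, against 1135 and 1188 in WT (2.04, SE 0.10, limma adjusted p = 4.28e-06). The meiotic cohesin gene Stag3 was at least 3.14-fold and the germ cell regulator Prdm14 at least 3.40-fold higher, both from WT signal within background. In WT, Stag3 read 43.2 and 87.2 and Prdm14 80.7 and 120, all under the filter signal of 130. Both genes thus passed the filter only through their Suz12KO arrays. Both lost their calls without Suz12KO array 1 (adjusted p 0.0849 and 0.0513). The count of 10 was 6 without WT array 2, 4 without Suz12KO array 1 and 6 without Suz12KO array 2.

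Rhox6, Rhox9 and Esx1 are active in the placental lineage. Of 27 other genes listed for it, 23 had a probe set and 19 were tested: 1 was called higher, 4 lower, and 14 neither, and their median was -0.004. The shares were 5.26% higher and 21.1% lower, against 4.48% and 5.50% of all tested genes. Tfap2c, a factor of trophoblast and germ cells, had 0.72 (SE 0.18, limma adjusted p = 0.0381). The keratins Krt19 (-2.15, SE 0.21), Krt8 (-1.91, SE 0.06) and Krt18 (-1.43, SE 0.06) fell. Tfap2c lost its call without WT array 1, WT array 2 or Suz12KO array 1 (adjusted p 0.0565 to 0.166), and when arrays were centred (adjusted p = 0.0778) or dim genes kept (adjusted p = 0.0575). The regulators Cdx2 (0.78, adjusted p = 0.317) and Eomes (0.54, adjusted p = 0.346) did not pass.

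Factors linked to germline gene silencing, for or against it, were examined next. Of 31 genes for DNA methylation, histone H3 lysine 9 methylation, linker histones and the E2F6 repressor complexes, 26 had a probe set and 24 were tested: 6 were called higher, 1 lower, and 17 neither, and their median was 0.21. The share called higher was 25%, against 4.48% of all tested genes. The list, called silencing factors below, also holds the Tet genes. Its share is thus not one of repressors alone. The DNA methyltransferase cofactor Dnmt3l rose by 1.43 (SE 0.07), reading 10105 and 10718 in Suz12KO, against 3826 and 3895 in WT. Tet1 rose by 1.20 (SE 0.12) and Tet2 by 1.18 (SE 0.19), both of which oxidise methylated cytosine. The linker histone H1f2 fell by 0.92 (SE 0.17) and lost its call without WT array 1 (adjusted p = 0.0746). With only probe sets whose names carry no suffix, H1f2 turned to 0.18 (adjusted p = 0.891), and with averaged probe sets Tet1 was at 0.61 (adjusted p = 0.0582). Dnmt1 (0.25, adjusted p = 0.147), Dnmt3a (-0.23, adjusted p = 0.419) and Dnmt3b (-0.20, adjusted p = 0.0879) did not pass.

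Among the 11 PRC2 genes, 4 were called higher, 1 lower and 6 neither. The shares were 36.4% higher and 9.09% lower, against 4.48% and 5.50% of all tested genes. Jarid2 rose by 0.95 (SE 0.07), Mtf2 by 0.76 (SE 0.08), Aebp2 by 0.45 (SE 0.12) and Eed by 0.36 (SE 0.08), and Suz12 itself fell. Leaving out any of the arrays ended the call of Aebp2 (adjusted p 0.0887 to 0.219). Of 2 listed genes that RHOX5 is known to regulate in mouse Sertoli cells, 1 was bright enough to test and was not called. The netrin receptor Unc5c read 550 and 499 in Suz12KO, against 377 and 549 in WT (0.20, SE 0.26, limma adjusted p = 0.716), and its sign turned with averaged probe sets and without WT array 1. The insulin gene Ins2 was too dim to test. It lay within background in all 4 arrays, at 87.9 and 104 in Suz12KO, against 55.5 and 84.6 in WT.

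**Figure D5:**
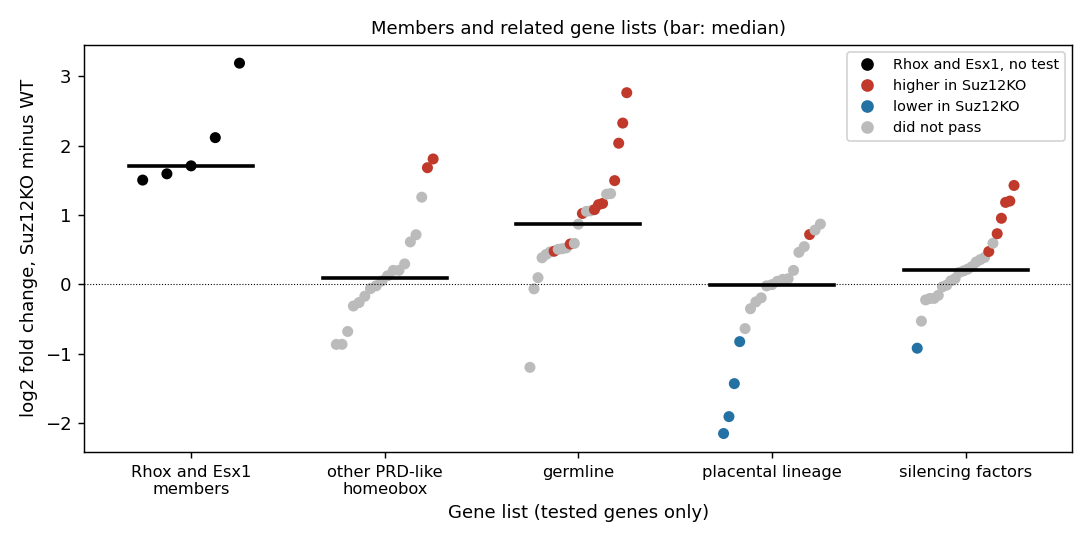
Log2 fold changes (Suz12KO minus WT) of the 5 members and of the tested genes of 4 related lists, sorted within each list, with bars at the medians. Members (black) carry no test. Red genes were called higher, blue lower, and grey did not pass.

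Markers of other cells moved with the genotype in part. Of 6 tested fibroblast markers, 4 were called lower, 0 higher and 2 did not pass. The 4 were collagen genes, while Thy1 went the other way without a call (0.41). The summed signal of the 6 was 2505 and 1928 in Suz12KO, against 6728 and 7016 in WT. Much of the WT sum is Col1a1 alone, which read 2859 and 2599 there, against 435 and 448 in Suz12KO. The fibroblast markers Postn, Pdgfrb and Lum were too dim to test. Of 5 tested trophoblast markers, 0 were called by limma, and their summed signal was 2300 and 1936 in Suz12KO, against 1482 and 1516 in WT. Hand1 alone read 1108 and 605 in Suz12KO, against 503 and 387 in WT, and Krt7 went the other way (-0.25). That sum gives no direction for the other trophoblast markers. The trophoblast markers Elf5, Ascl2 and Tpbpa were too dim to test. Of 10 tested primitive endoderm markers, 1 was called higher (Lama1, 2.31) and 1 lower (Sparc, -0.59), and their summed signal was 20129 and 20417 in Suz12KO, against 26759 and 25662 in WT. Much of that sum is Sparc alone, which read 11866 and 12159 in Suz12KO, against 18874 and 17287 in WT, so the sum gives no direction for the other markers. The summed signal of the 8 stem cell markers was 107835 and 111124 in Suz12KO, against 58551 and 57757 in WT. The part of these differences in the levels of the Rhox genes and Esx1 was not tested.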

How the data were processed

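RNA levels were measured on 4 Affymetrix arrays (2 Suz12KO, 2 WT), grouped by sample title. The authors deposited 1 linear intensity (signal) per array for each of 45101 probe sets. Its trimmed mean (2% of values left out at each end) was 500.003 in every array. The array medians still differed, at 202 and 191 in Suz12KO, against 175 and 171 in WT. A shift common to most genes is therefore neither fully removed nor measured by this scaling. The software behind the signal is not named in the labels. The platform annotation gives 1 symbol for 34945 probe sets, several for 932, and none here for 9224, controls included. Probe sets with 1 symbol were used, the one with the highest mean log2(signal + 16) for each of 18193 genes, and 12735 genes remained above the 30th percentile of mean level. The difference Suz12KO minus WT was fitted in limma 3.58.1, R 4.3.3 (two-sided, eBayes with trend; p-values adjusted by Benjamini-Hochberg across the 12735 genes; a call needs an adjusted p under 0.05). The fit was also run on simulated data with variances drawn from its own fitted trend, which cannot test whether that trend holds here. Bounds ("at least") compare the brighter genotype's mean log2 signal with the highest unused spike of each array of the dimmer one. Gene order came from the RefSeq table of GRCm38.p6, in which 12676 tested genes had a chromosome, and promoter sequences came from RefSeq, with 3 of 5 members matched. Older symbols were matched through gene IDs. Named genes are all members, the PRC2 genes, up to 3 called genes per list in each direction, by size of change (the 2 brightest where none passed), the RHOX5 targets, the nearest neighbours, and the 5 genes most like Rhox5 and the 2 most like Rhox6, Rhox9 and Esx1. The pair most like Rhox13, the stem cell marker examples, Zbtb33, Obox5, Cdx2, Eomes and the Dnmt genes were added after their values were seen. Members and lists were chosen with earlier results of these data known. Alternatives were other pseudocounts (1 and 64), quantile or median scaling, no filter or the 50th percentile, averaged probe sets, only those with no s, x or a suffix in their names, eBayes made robust or run without a trend, the replicate number as a block, and leaving out each array. Tables and figures used Python 3.11.15 and matplotlib 3.10.9.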

Additional observations from a re-analysis of the deposited data

How the results depend on the processing

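The 5 members stayed higher in Suz12KO under each alternative that could measure them. This is no sign of stability: both Suz12KO arrays lie above both WT arrays, so leaving out an array cannot turn a direction, and the filter, eBayes and block settings do not alter a member's value. Rhox13 was not tested with a filter at the 50th percentile, and Esx1 has no probe set without a suffix. Without each array in turn, Rhox5 was at 2.93 to 3.46, Rhox6 at 1.28 to 1.91, Rhox9 at 0.94 to 2.07, Rhox13 at 1.34 to 2.08 and Esx1 at 1.40 to 2.83. A genotype left with 1 array is then assumed to vary like the other.

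Counts of calls depended on the settings, and the cause was not tested. Without the mean-variance trend limma called 0 genes in either direction and 0 in each list counted here (smallest adjusted p 0.0999, with 2332 genes at an unadjusted p under 0.05). Centring on the array median gave 294 higher and 1243 lower genes in place of 570 and 700. It gave 25 higher and 48 lower on chromosome X, 6 higher germline genes, 0 higher placental genes and 3 lower silencing factors. Averaged probe sets gave 305 higher and 306 lower genes, 27 higher and 17 lower on chromosome X and 5 lower neighbours. Without suffixes there was 1 higher paired-like homeobox gene, 2 lower placental genes, 3 higher neighbours and 0 lower silencing factors, and H1f2 turned to 0.18. Without a filter, 6 germline genes and 0 placental genes were higher. Unc5c turned to -0.030 with averaged probe sets, and without each array in turn it ran from -0.066 to 0.46.

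Leaving out 1 array at a time gave 407 to 460 higher and 391 to 740 lower genes, 29 to 34 higher and 16 to 32 lower on chromosome X, and 5 to 9 lower neighbours. It gave 4 to 8 higher germline genes, 1 to 2 higher paired-like homeobox genes, 0 to 2 higher placental genes and 0 to 1 lower silencing factors.

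Both genotypes have replicates numbered 1 and 2. Deviations of same-numbered arrays correlated at 0.015 across genes. This single value cannot show whether some genes share a batch, which was not tested. With the replicate block 1016 genes were higher and 1082 lower, 3 silencing factors were lower and 2 placental genes higher.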
